A study of Mus musculus with 8 samples.

Results

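The platelet-derived growth factor (PDGF) family was examined at the transcript level in mouse cells labelled wild type or LRP1 KO. Its 6 genes, the 4 ligand genes Pdgfa, Pdgfb, Pdgfc and Pdgfd and the 2 receptor genes Pdgfra and Pdgfrb, were found by their symbols among the 22520 genes of the deposited table. The libraries were labelled as mixed microvesicular cells (microvascular in the paper's wording) of heart, liver and lung from C57BL/6 mice at postnatal day 14, with 4 WT and 4 LRP1 KO libraries. The labels give no alleles. The paper sequenced RNA of PECAM-1 bead-selected endothelial cells from WT (LRP1 f/f; Cdh5-CreER-/-) and knockout (LRP1 f/f; Cdh5-CreER+/-) littermates, in which floxed Lrp1 is shared by both groups and an inducible Cre recombinase is driven by the VE-cadherin promoter of endothelial cells. It describes cells of the liver apart from those of heart and lung, whereas these libraries are labelled as a mix of all 3 organs, so whether that genotype and selection apply to them is not settled by the sources used here. The labels do not say whether each library came from a separate mouse, so p-values measure the spread between these libraries, which may be technical.

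PDGFs are secreted dimers that bind receptor tyrosine kinases. PDGF-A and PDGF-B are cut inside the cell before release, while PDGF-C and PDGF-D carry a CUB domain that proteases remove outside the cell. The alpha receptor responds to PDGF-A, PDGF-B and PDGF-C, and the beta receptor to PDGF-B and PDGF-D. In growing vessels, endothelial cells secrete PDGF-B, and pericytes and smooth muscle cells, which carry the beta receptor, follow it. The alpha receptor is mainly found on fibroblasts and other stromal cells. LRP1 associates with the beta receptor in smooth muscle cells and restrains its signaling, which is why this family is of interest when LRP1 is lost, although the paper's deletion was directed at endothelial cells.

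Values were taken to be FPKM (fragments scaled to transcript length and to the mapped fragments of the library), a unit inferred as described below. They were quantile normalized by the authors, so that depth is unknown and each value is judged by the spread of the 4 libraries of its group. A gene called changed had an adjusted p-value under 0.05 in limma on log2(FPKM + 1), adjusted over the 11389 genes with at least 1 FPKM in at least 4 libraries. All 6 members passed that filter. Lrp1 itself was at 103 to 140 FPKM in WT, against 2.79 to 7.72 FPKM in LRP1 KO, with the highest LRP1 KO value in library 4. That library stood apart from the other LRP1 KO libraries in markers of endothelial cells. The summed level of 20 endothelial genes was 295 FPKM in LRP1 KO library 4, within the WT range of 288 to 307 FPKM, and 542 to 830 FPKM in the other 3. Results are therefore given with and without it. Pecam1, the antigen of the paper's bead selection, was at 6.80 to 8.76 FPKM and Cdh5 at 8.87 to 11.2 FPKM in WT, while Col1a1, a fibroblast collagen, was at 395 to 565 FPKM. Pecam1 and Cdh5 were thus present in WT at lower levels than this collagen. Levels differed widely among markers of either cell type. In WT, Eng, an endothelial gene, was at 48.65 to 61.71 FPKM and Pi16, a fibroblast gene, at 0.108 to 0.258 FPKM. The share of each cell type was not measured. Lrp1 was low in all 4 LRP1 KO libraries, where Col1a1 was at 363 to 558 FPKM, and which cells had lost it was not tested. Of the organs named in the labels, 6 of 8 hepatocyte genes and 6 of 8 lung epithelial genes were under 1 FPKM in every library, with Alb at 0.108 FPKM or less and Sftpc at 0.180 FPKM or less. Exceptions were Ttr, at 1.28 FPKM or less, Ahsg, at 10.1 to 11.1 FPKM in WT and higher in LRP1 KO (log2 change 0.91, limma adjusted p 0.0326), Scgb1a1, at 1.84 to 3.42 FPKM in WT and lower in LRP1 KO (log2 change -0.85, limma adjusted p 0.00770), and Ager, at up to 4.34 FPKM. The 8 cardiomyocyte genes summed to 102 to 156 FPKM in WT, against 90.6 to 128 FPKM in LRP1 KO, most of it Tnnt2. In WT, Ryr2 was at 0.0611 FPKM or less and Myh6 at 0.414 FPKM or less, while Nppa was at 1.521 to 7.705 FPKM.

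In WT, Pdgfrb was the most abundant member, followed by Pdgfc, Pdgfra, Pdgfa, Pdgfd and Pdgfb, with mean values of 71.6, 56.5, 43.9, 13.7, 2.22 and 1.26 FPKM. FPKM is scaled to transcript length, which allows a comparison of levels between genes. That comparison is only rough here, because the unit was inferred and quantile normalization sets each value by rank. The ranges of Pdgfrb and Pdgfc overlapped in WT, and all other neighbours in that order were separated. Pdgfrb lay above 90.1% of the tested genes and Pdgfb above only 3.20%. The order of the means was the same in LRP1 KO, but only Pdgfa and Pdgfd were separated there. In LRP1 KO, Pdgfb lay above 18.1% and Pdgfd above 33.6% of the tested genes.

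Between the groups, 2 members rose in LRP1 KO (Pdgfd and Pdgfa) and 2 fell (Pdgfc and Pdgfra), while Pdgfb and Pdgfrb did not pass the test. Thus 4 of 6 were called, where 13.6% of all tested genes were called (6.27% higher and 7.31% lower). Groups did not overlap for 3 of the 6 members and for 19.6% of all tested genes. LRP1 KO lay wholly above WT for 2 members and 8.84% of tested genes, and wholly below for 1 member and 10.7% of tested genes. Only Pdgfd also reached an absolute log2 fold change of 1, as 1.62% of all tested genes did. Over all tested genes the median log2 change was -0.01. In such bulk samples, fewer cells of a type and less RNA per cell cannot be told apart.

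**Figure D1:**
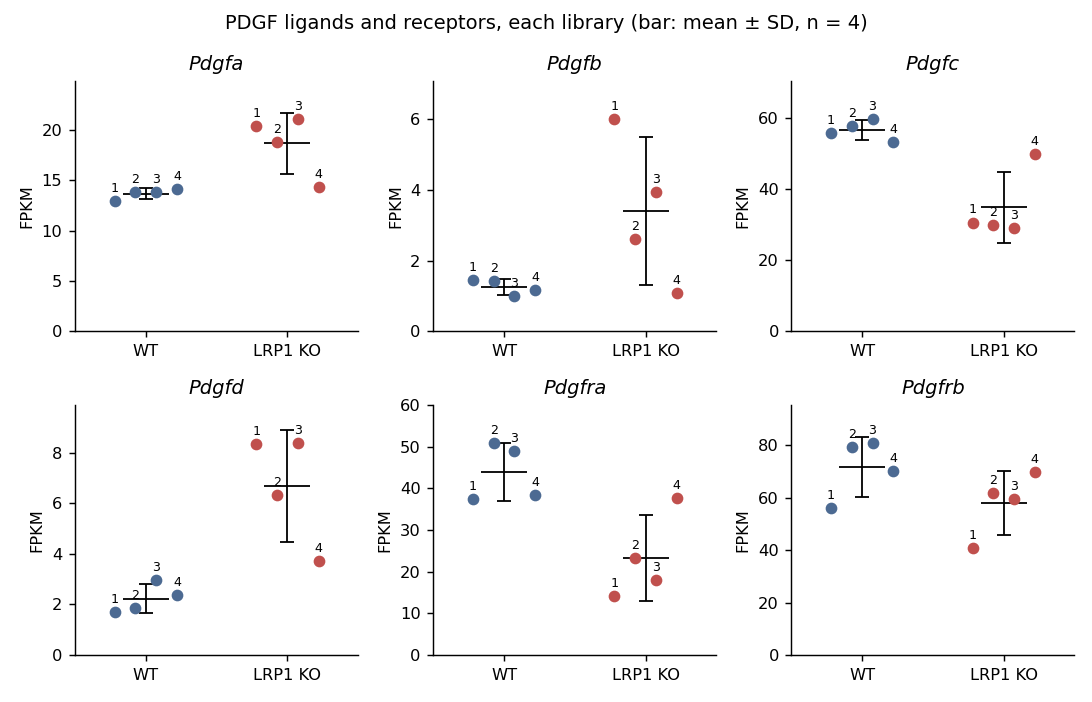
FPKM of the 6 PDGF family genes (vertical axes, from 0) in each library, with WT in blue and LRP1 KO in red, numbers marking the library and bars giving mean ± SD (n = 4). LRP1 KO library 4 was the LRP1 KO library nearest to WT for Pdgfa, Pdgfb, Pdgfc, Pdgfd and Pdgfra, for example at 49.8 FPKM of Pdgfc where the other 3 were at 29.0 to 30.5.

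In the mouse genome (GRCm38), Pdgfd (ENSMUSG00000032006) spans chr9:6168584-6378850 on the plus strand, Pdgfc (ENSMUSG00000028019) chr3:81036416-81214040 on the plus strand and Pdgfra (ENSMUSG00000029231) chr5:75152292-75198215 on the plus strand. Pdgfa (ENSMUSG00000025856) spans chr5:138976014-138997370 and Pdgfb (ENSMUSG00000000489) chr15:79995874-80014977, both on the minus strand. All are protein coding. Exons of Pdgfa share 813 bases with the antisense gene 6330403L08Rik, those of Pdgfra 456 bases with Gm42802 and those of Pdgfc 147 bases with Gm16000. Whether reads were assigned by strand is not given in the sources used here, so reads from such stretches may count for either gene. 6330403L08Rik was low, at 1.58 to 1.74 FPKM in WT, against 1.29 to 1.36 FPKM in LRP1 KO. The 250 bases before the start of the 3 called members with the largest log2 changes, counted from the RefSeq start and read from its promoter table (GRCm38.p6), are shown 5′ to 3′ so that the promoter of the gene that rose can be set beside those of the genes that fell. RefSeq windows matched 4 of the 6 members. Capitals mark a match to 1 of 6 motifs, searched on both strands.
Pdgfd, chr9:6168236-6168485, plus strand: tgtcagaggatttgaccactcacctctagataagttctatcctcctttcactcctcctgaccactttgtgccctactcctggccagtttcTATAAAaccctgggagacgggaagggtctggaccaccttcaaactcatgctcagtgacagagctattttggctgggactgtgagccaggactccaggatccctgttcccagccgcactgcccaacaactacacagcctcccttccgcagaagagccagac
Pdgfra, chr5:75152001-75152250, plus strand: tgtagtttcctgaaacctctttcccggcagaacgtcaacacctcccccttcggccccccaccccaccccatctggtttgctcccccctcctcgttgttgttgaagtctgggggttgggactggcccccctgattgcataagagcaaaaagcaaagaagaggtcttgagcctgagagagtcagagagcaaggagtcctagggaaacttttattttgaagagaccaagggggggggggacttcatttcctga
Pdgfc, chr3:81036166-81036415, plus strand: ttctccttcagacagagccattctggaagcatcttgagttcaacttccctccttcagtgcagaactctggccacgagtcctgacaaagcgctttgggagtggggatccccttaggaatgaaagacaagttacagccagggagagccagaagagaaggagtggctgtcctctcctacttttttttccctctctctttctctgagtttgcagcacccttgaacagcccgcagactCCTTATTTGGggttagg

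The motifs were the TATA box, the GC box, the CCAAT box, the AP-1 site, a FoxO site and the CArG box, to which serum response factor binds. The Pdgfd window held a match to the letters of the TATA box, TATAAA, 160 bases before the start. Such a match was found in 12.4% of all 32851 RefSeq windows of this length. The Pdgfc window held a CArG box, CCTTATTTGG, 17 bases before the start, a motif found in 1.47% of all windows, and the Pdgfra window held none of the 6. The GC box, spelled GGGCGG, was in 32.7% of all windows. The box CCAAT was in 33.8% of them. The AP-1 site was searched as TGANTCA, where N is any base, and was in 6.75%. The FoxO site was searched as TGTTTAC and was in 3.17%. None of these 4 was in the 3 windows shown. The windows held 3, 4 and 3 CG pairs for Pdgfd, Pdgfra and Pdgfc, against a median of 6 over all windows, and none overlapped an annotated exon. A match here describes letters and does not show that a factor binds.

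Of the ligand genes, Pdgfd changed most. It encodes PDGF-D, a ligand of the beta receptor. Its values were 1.69, 1.85, 2.95 and 2.38 FPKM across WT libraries 1 to 4, against 8.35, 6.31, 8.39 and 3.72 FPKM across the 4 LRP1 KO libraries in the same order. All LRP1 KO values exceeded all WT values, with library 4 nearest to WT. The mean rose from 2.22 ± 0.573 to 6.69 ± 2.21 FPKM (SD, n = 4 per group), a ratio of 3.02. In log2(FPKM + 1) units the rise was 1.22 (SE 0.22, limma adjusted p 0.0111). It was 1.44 (limma adjusted p 0.000629) without LRP1 KO library 4, and it stayed past the threshold whichever library was left out. Pdgfd was thus the member whose call depended least on single libraries.

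Pdgfa encodes PDGF-A, a ligand of the alpha receptor. It was at 12.9, 13.9, 13.8 and 14.1 FPKM across WT libraries 1 to 4, against 20.4, 18.8, 21.1 and 14.4 FPKM across the 4 LRP1 KO libraries in the same order. The groups did not overlap, but LRP1 KO library 4 lay only just above the highest WT library. The mean rose from 13.7 ± 0.527 to 18.7 ± 3.02 FPKM (SD, n = 4 per group), by 0.41 in log2(FPKM + 1), with an SE of 0.11 (limma adjusted p 0.0376). Without LRP1 KO library 4 the rise was 0.52 (limma adjusted p 0.00113). The call was lost when any 1 of the other 7 libraries was left out, at limma adjusted p-values of 0.0650 to 0.108, while the estimate stayed between 0.35 and 0.42.

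Pdgfc, the most abundant ligand transcript, encodes PDGF-C, a ligand of the alpha receptor. Its values were 55.7, 57.7, 59.5 and 53.2 FPKM across WT libraries 1 to 4, against 30.5, 29.8, 29.0 and 49.8 FPKM across the 4 LRP1 KO libraries in the same order. All LRP1 KO values lay under all WT values. Libraries 1 to 3 were close to each other and far below WT, and library 4 was near it. Its mean fell from 56.5 ± 2.73 to 34.8 ± 10.02 FPKM (SD, n = 4 per group), or to 61.5% of WT, a log2 change of -0.72 (SE 0.15, limma adjusted p 0.0201). Without LRP1 KO library 4 the change was -0.90 (limma adjusted p 0.000143). The call was lost without WT library 2 or without LRP1 KO library 1, 2 or 3, at limma adjusted p-values of 0.0606, 0.0589, 0.0606 and 0.0577.

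Pdgfb encodes PDGF-B, the ligand by which endothelial cells recruit mural cells. It was at 1.46, 1.43, 0.994 and 1.17 FPKM across WT libraries 1 to 4, against 6.01, 2.60, 3.94 and 1.08 FPKM across the 4 LRP1 KO libraries in the same order. LRP1 KO libraries 1 to 3 were above all WT libraries, and library 4 was inside the WT range. The estimate of 0.83 (SE 0.31) on the log2(FPKM + 1) scale did not pass (limma adjusted p 0.0972), with a 95% interval of 0.14 to 1.53 before adjustment. Without LRP1 KO library 4 it was 1.15 and passed (limma adjusted p 0.00479). The sum of the endothelial marker genes, though not every gene of it (Flt1, Vwf, Kdr and Tek did not), stood in the same order over the LRP1 KO libraries. Their summed level was 830, 542, 634 and 295 FPKM in libraries 1 to 4, and all 18 tested of the 20 were higher in LRP1 KO on average, with 1 past the threshold (Eng) and a median log2 change of 0.76. Pdgfb was therefore also read against that list. The difference between Pdgfb and the mean log2(FPKM + 1) of the list was -1.68 ± 0.145 in WT and -1.59 ± 0.141 in LRP1 KO (SD, n = 4 per group). These differed by 0.09, less than the spread between libraries (exact two-sided permutation p 0.514). For this low gene the difference was 0.23 with a pseudocount of 0.1 (exact permutation p 0.257), and 0.02 to 0.13 when 1 library was left out, lowest without WT library 3. With the endothelial, mural or macrophage list as a covariate in the fit across all genes, the Pdgfb estimate was -0.05, 1.34 or 2.34, and none of these passed (limma adjusted p 0.932, 0.999 and 0.142).

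Platelets store PDGF-A and PDGF-B protein, and the markers of platelets and megakaryocytes were low. Of 10 such genes, 8 were under 1 FPKM in every library and Ppbp was listed at 0 throughout. The exceptions were Itga2b, at 0.71 to 1.22 FPKM, and Pf4, at 0.623 to 0.725 FPKM in WT, against 0.825 to 2.75 FPKM in LRP1 KO, with no overlap. Their summed level was 2.01 to 3.08 FPKM in WT, against 2.82 to 5.20 FPKM in LRP1 KO. Macrophages can also express PDGF genes, and their markers moved with the groups. Of 13 tested macrophage genes, 10 rose and none fell beyond the threshold, with a summed level over 16 genes of 104 to 131 FPKM in WT, against 271 to 627 FPKM in LRP1 KO. The LRP1 KO libraries 1 to 4 were at 425, 627, 271 and 568 FPKM of macrophage genes. Cx3cr1 was at 0.0156 FPKM or less in every library. The part of platelets or macrophages in the change of any PDGF gene was not tested.

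The make-up of the ligand transcripts differed between the groups. This was looked at after the values had been seen and is given as a description. Summed over the 4 ligands, the level was 71.7, 74.8, 77.3 and 70.8 FPKM across WT libraries 1 to 4, against 65.3, 57.4, 62.4 and 68.9 FPKM across the 4 LRP1 KO libraries in the same order. Pdgfc made up 75.1% to 77.6% of that sum in WT, and 46.7%, 51.8%, 46.5% and 72.2% in LRP1 KO libraries 1 to 4. The share of Pdgfd was 2.35% to 3.82% in WT and 12.8%, 11.0%, 13.4% and 5.39% in LRP1 KO. The share of Pdgfa went from a mean of 18.6% in WT to 29.6% in LRP1 KO. Every LRP1 KO library thus had a smaller Pdgfc share than every WT library, by a wide margin in 3 of them and a narrow one in library 4.

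**Figure D2:**
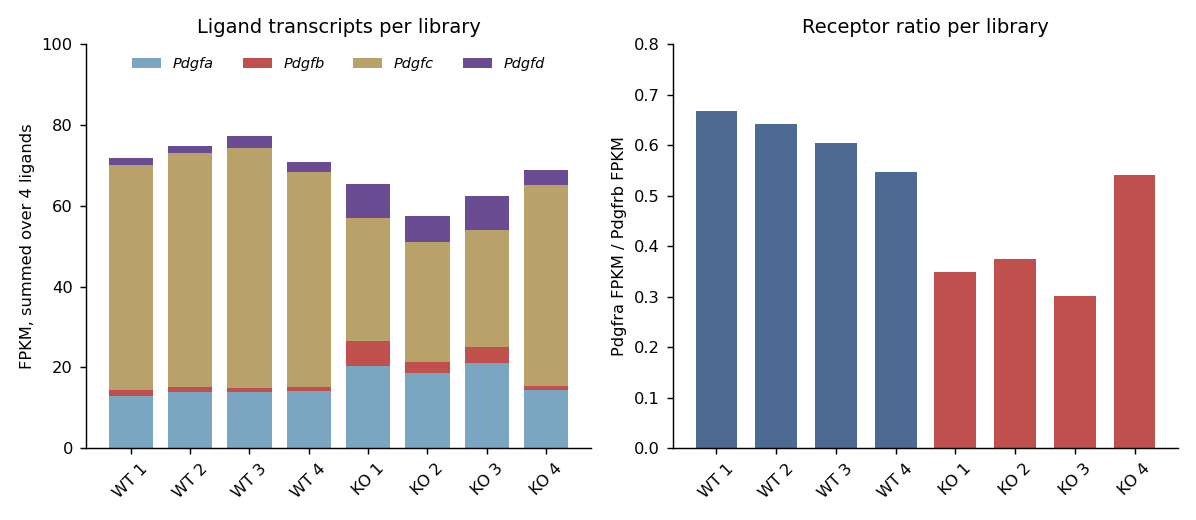
Left, FPKM of the 4 PDGF ligand genes stacked for each library, in FPKM from 0. Right, the ratio of Pdgfra to Pdgfrb FPKM in each library, from 0, with WT in blue and LRP1 KO (KO on the axis) in red. Pdgfc made up 75.1% to 77.6% of ligand FPKM in WT and 46.5% to 51.8% in LRP1 KO libraries 1 to 3, and the receptor ratio was 0.302 to 0.374 there against 0.546 to 0.667 in WT.

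Of the receptor genes, Pdgfra fell. It encodes the alpha receptor. Its values were 37.4, 50.9, 49.0 and 38.3 FPKM across WT libraries 1 to 4, against 14.2, 23.2, 18.0 and 37.7 FPKM across the 4 LRP1 KO libraries in the same order. LRP1 KO libraries 1 to 3 were below all WT libraries, whereas library 4 was inside the WT range. Its mean fell from 43.9 ± 7.02 to 23.3 ± 10.3 FPKM (SD, n = 4 per group), or to 53.0% of WT, a log2 change of -0.96 (SE 0.25, limma adjusted p 0.0367). Without LRP1 KO library 4 the change was -1.22 (limma adjusted p 0.00163). The call was lost when any 1 of the other 7 libraries was left out, at limma adjusted p-values of 0.0582 to 0.104, and the estimate then ran from -1.03 to -0.77.

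Fibroblast genes, read because Pdgfra marks stromal cells, were examined next. Of the 15 listed, 14 were tested, 11 were lower on average and 1 passed the threshold (Dpt), with a median log2 change of -0.28. Their summed level was 2945 to 4277 FPKM in WT, against 2639 to 3910 FPKM in LRP1 KO, so the groups overlapped. Pi16 was at 0.304 FPKM or less in every library. Set against the mean log2(FPKM + 1) of this list, Pdgfra was at -0.72, -0.68, -0.65 and -0.97 in WT libraries 1 to 4 and at -1.49, -1.44, -1.54 and -0.97 in LRP1 KO libraries 1 to 4. The groups did not overlap, though LRP1 KO library 4 and WT library 4 were all but equal. The means differed by -0.61 (exact two-sided permutation p 0.0286, the smallest that 4 libraries against 4 allow). Whether stromal cells took part in the lower Pdgfra level was not tested.

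Pdgfrb (ENSMUSG00000024620) encodes the beta receptor, the one that LRP1 restrains. It spans chr18:61045150-61085061 on the plus strand of GRCm38, is protein coding and overlaps no other annotated gene. Its values were 56.2, 79.4, 80.9 and 70.1 FPKM across WT libraries 1 to 4, against 40.7, 61.9, 59.7 and 69.8 FPKM across the 4 LRP1 KO libraries in the same order. The groups overlapped, with WT library 1 below 3 of the LRP1 KO libraries. The mean was 71.6 ± 11.4 FPKM in WT, against 58.0 ± 12.4 FPKM in LRP1 KO (SD, n = 4 per group). The log2 difference of -0.31 (SE 0.17) did not pass (limma adjusted p 0.221), with a 95% interval of -0.69 to 0.07 before adjustment. It was -0.41 without LRP1 KO library 4 (limma adjusted p 0.106), and -0.15 without LRP1 KO library 1, the lowest of the group. With the endothelial, mural or macrophage list as a covariate the estimate was 0.03, -0.71 or -1.05 (limma adjusted p 0.973, 0.999 and 0.200). A difference of Pdgfrb was therefore not detectable over the spread of these libraries.

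Mural cell genes were read beside Pdgfrb. Of 15 listed, 10 were tested and 5 rose (Acta2, Tagln, Des, Cnn1 and Lmod1), which are genes of the contractile machinery and cytoskeleton of smooth muscle cells and myofibroblasts. None fell beyond the threshold, the median log2 change was 0.61, and the summed level went from 628 to 796 FPKM in WT to 1023 to 1609 FPKM in LRP1 KO. Genes often used to mark pericytes were uneven. Rgs5 was at 1.26 FPKM or less, Kcnj8 at 0.338 FPKM or less, Higd1b at 0.567 FPKM or less and Vtn at 0.142 FPKM or less in every library. Ndufa4l2 was at 24.9 to 33.8 FPKM in WT, against 13.5 to 48.4 FPKM in LRP1 KO, Notch3 at 1.80 to 4.37 FPKM and Cox4i2 at 1.23 to 3.83 FPKM over all libraries, and none of these 3 passed the test. Against the mean log2(FPKM + 1) of the mural list, Pdgfrb was at 3.224, 3.783, 3.699 and 3.597 in WT libraries 1 to 4 and at 2.490, 2.881, 2.956 and 3.230 in LRP1 KO libraries 1 to 4. The difference of means was -0.69, and LRP1 KO library 4 and WT library 1 overlapped by a very small margin (exact two-sided permutation p 0.0571). Pdgfrb thus did not rise along with the contractile genes of the list. Of 8 hepatic stellate cell genes, which mark the mural cells of the liver, 5 were under 1 FPKM in every library, with Lrat at 0.0454 FPKM or less.

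The ratio of Pdgfra to Pdgfrb was computed in each library, after the values had been seen. It was 0.667, 0.641, 0.605 and 0.546 in WT libraries 1 to 4 and 0.350, 0.374, 0.302 and 0.540 in LRP1 KO libraries 1 to 4. The first 3 LRP1 KO libraries were clearly lower, and library 4 was level with the lowest WT library. On the log2(FPKM + 1) scale the mean difference between the receptors was -0.69 ± 0.123 in WT and -1.34 ± 0.339 in LRP1 KO (SD, n = 4 per group).

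**Figure D3:**
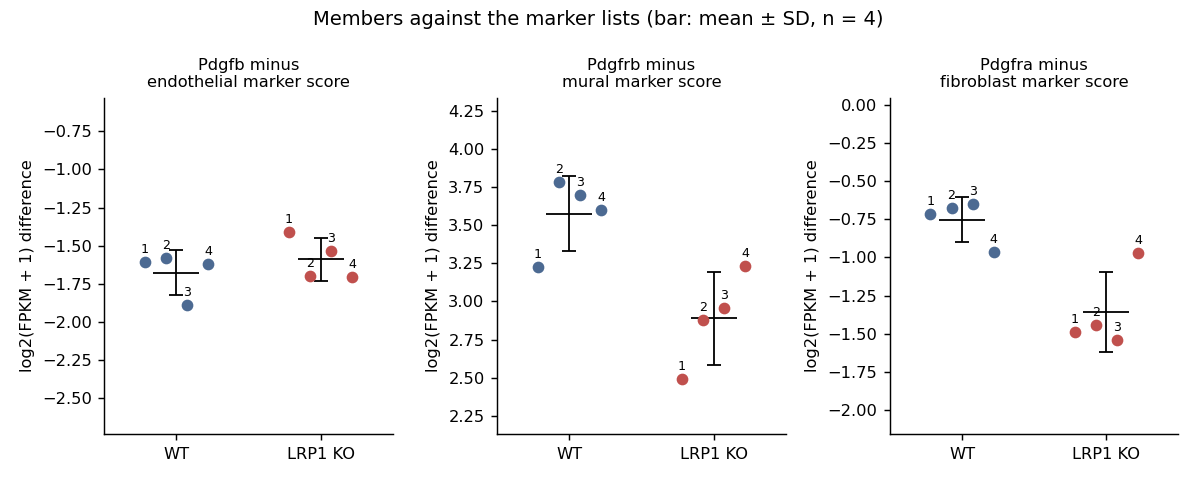
Difference between log2(FPKM + 1) of a PDGF gene and the mean log2(FPKM + 1) of a marker list in each library, for Pdgfb with the endothelial, Pdgfrb with the mural and Pdgfra with the fibroblast list, with WT in blue, LRP1 KO in red, library numbers beside the points and bars for mean ± SD (n = 4). The groups overlapped for Pdgfb at about -1.68 and -1.59. The difference between Pdgfra and the fibroblast list was lower in every LRP1 KO library than in any WT library. Its margin was very small in LRP1 KO library 4, at -0.9699 against -0.9676 in WT library 4.

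How the 6 estimates moved with the settings was examined next. All 6 kept their sign in every fit that left out 1 library. A marker list as a covariate changed the picture most: with the endothelial, the mural or the macrophage list in the fit, none of the 4 calls was kept. In those fits limma called 172, 0 and 6 of all genes (1257, 164 and 2367 at an unadjusted p under 0.05), against 1547 (3838), and the median SE over all genes went from 0.0880 to 0.115, 0.285 and 0.243. With the endothelial list, however, the SE of each called member fell. It went from 0.108 to 0.0926 for Pdgfa, 0.154 to 0.132 for Pdgfc, 0.221 to 0.191 for Pdgfd and 0.252 to 0.164 for Pdgfra. The estimates of these genes also became smaller in size in that fit. With the mural and macrophage lists the SEs of the called members rose, to 0.819 and 0.535 for Pdgfra. The lists differ between the groups themselves, so the effect of the group and of the list cannot be fully told apart in these 8 libraries. Pdgfa and Pdgfra were also lost when no filter on low values was used, at limma adjusted p-values of 0.0682 and 0.0769, which raised the number of tested genes to 18026. Both were lost too with the library number as a block, at limma adjusted p-values of 0.0647 and 0.0518, although the labels give no pairing.

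**Figure D4:**
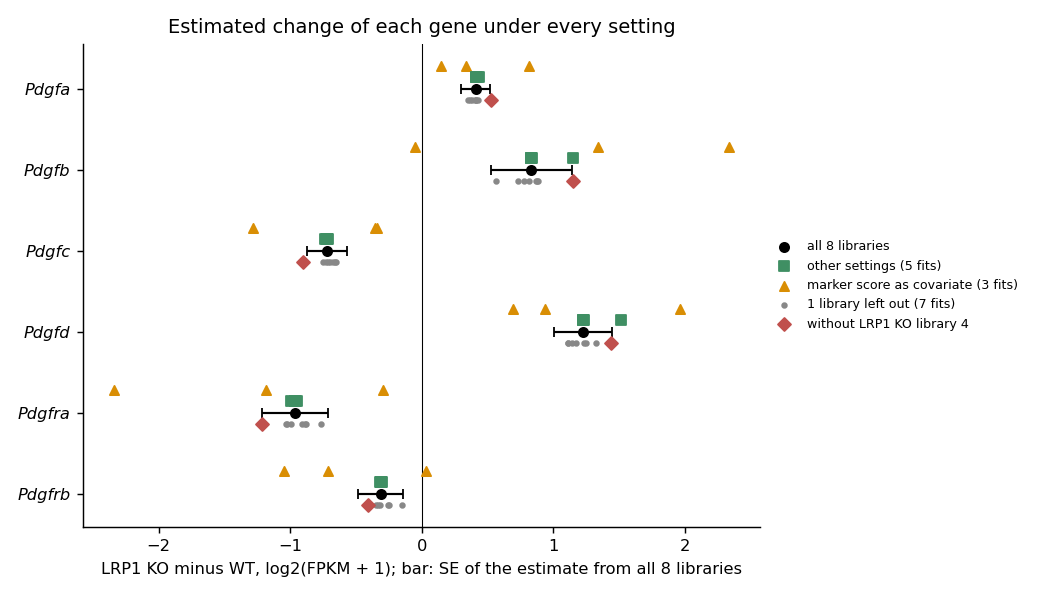
Estimated difference between LRP1 KO and WT, in log2(FPKM + 1) units, for each PDGF gene under every setting, with the SE of the estimate from all 8 libraries as a bar. Estimates without LRP1 KO library 4 (red diamonds) were farther from 0 than those from all 8 libraries for all 6 genes, for example 1.15 against 0.83 for Pdgfb. The widest spread was among the 3 fits with a marker list as covariate (orange triangles), where Pdgfb ran from -0.05 to 2.34 and Pdgfra from -2.34 to -0.29.

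The other genes of the pathway were taken from lists by role. Among 8 genes that cut, bind or hold PDGFs outside the cell, 7 were tested and 1 was called. Plau, which encodes urokinase, a protease that can activate PDGF-D, fell from a WT mean of 29.8 ± 3.58 to 21.4 ± 2.22 FPKM (SD, n = 4 per group), by 0.46 on the log2(FPKM + 1) scale (limma adjusted p 0.0201). Every LRP1 KO library was lower in Plau than any WT library, and the call was lost without LRP1 KO library 2 or 3 (limma adjusted p 0.0574 and 0.0584). Plat, which encodes tissue plasminogen activator, an activator of PDGF-C, was at 17.6 to 21.2 FPKM in WT, against 15.3 to 34.4 FPKM in LRP1 KO (log2 difference 0.25, limma adjusted p 0.448). Hspg2, the heparan sulfate proteoglycan perlecan, differed by -0.17 (limma adjusted p 0.332). Sparc, a matrix protein that binds PDGF-B, had the same set of 4 values in both groups, 3055 to 3645 FPKM, and did not differ in mean. Quantile normalization sets each value by rank, so Sparc held the same ranks in both groups. A change of its level that kept the rank could not be seen. St14, the protease matriptase, was too low to be tested, at 0.343 to 0.688 FPKM in WT, against 0.770 to 1.31 FPKM in LRP1 KO.

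Of the 4 receptor relatives, 2 were tested. Csf1r, the receptor by which macrophages are kept alive, rose from 2.85 ± 0.0685 to 4.01 ± 0.681 FPKM (SD, n = 4 per group), by 0.37 (limma adjusted p 0.0460), beside the macrophage genes already given. That call was kept only without LRP1 KO library 3 (limma adjusted p 0.0146) and was lost without any other 1 library, at limma adjusted p-values of 0.0565 to 0.118. Pdgfrl, a secreted protein resembling the PDGF receptors, was at 16.9 ± 2.12 FPKM in WT, against 13.7 ± 3.72 FPKM in LRP1 KO (log2 difference -0.32, limma adjusted p 0.249). Kit was not tested, at 0.410 to 0.511 FPKM in WT, against 0.310 to 1.69 FPKM in LRP1 KO, and Flt3 was at 0.0119 FPKM or less throughout.

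Of 32 genes that relay the receptor signal, all were tested, 3 rose and 5 fell, with a median log2 change of 0.05. Among those that rose were Fyn (0.46, limma adjusted p 0.0260) and Map2k1 (0.27, limma adjusted p 0.0162). Fyn is a Src-family kinase and Map2k1 the kinase MEK1. Among those that fell were Shc1 (-0.34, adjusted p 0.0363), Plcg1 (-0.34, adjusted p 0.0118), Mapk3 (-0.28, adjusted p 0.00847) and Pik3r1 (-0.27, adjusted p 0.0331). Plcg1, Pik3r1 and Shc1 encode proteins that dock directly on phosphorylated PDGF receptors, and Mapk3 (ERK1) stands further down. Akt1 differed by 0.25 without passing (limma adjusted p 0.0574). The number called was 16 without LRP1 KO library 4 and 3 to 6 without any 1 of the others.

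Among 13 inhibitors of the signal, 1 was called. Cblb, a ubiquitin ligase that sends activated receptors to degradation, rose from 6.54 ± 0.692 to 8.25 ± 0.365 FPKM (SD, n = 4 per group), by 0.30 (limma adjusted p 0.0391), a call that was lost without any 1 library other than LRP1 KO library 4 (limma adjusted p 0.0502 to 0.104). Dusp6, a phosphatase of ERK, differed by -0.10 (limma adjusted p 0.595), and Rasa1, which switches Ras off, by 0.10 (limma adjusted p 0.441). Of 15 genes that growth factors induce, 13 were tested, 3 rose and none fell, with a median log2 change of 0.11. Ccnd1, which encodes cyclin D1, rose from 29.2 ± 7.71 to 70.0 ± 22.6 FPKM (SD, n = 4 per group), by 1.21 (SE 0.27, limma adjusted p 0.0235). The LRP1 KO libraries, in order, had 78.8, 70.8, 91.7 and 38.8 FPKM of Ccnd1, and its call was lost without WT library 1 or 2 or LRP1 KO library 1, 2 or 3 (limma adjusted p 0.0542 to 0.0678). Jun rose by 0.68 (limma adjusted p 0.000916) and Myc by 0.54 (limma adjusted p 0.0122), and both passed whichever library was left out. The classical early genes Fos and Egr1 differed by 0.11 and -0.17 without passing (limma adjusted p 0.363 and 0.245), as did Ccl2 by 0.04 (limma adjusted p 0.826) and Plaur, the urokinase receptor, by 0.40 (limma adjusted p 0.0840). Over the lists, 8 of 32, 3 of 13, and 1 each of 13, 7 and 2 genes were called, beside 13.6% of all genes.

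**Figure D5:**
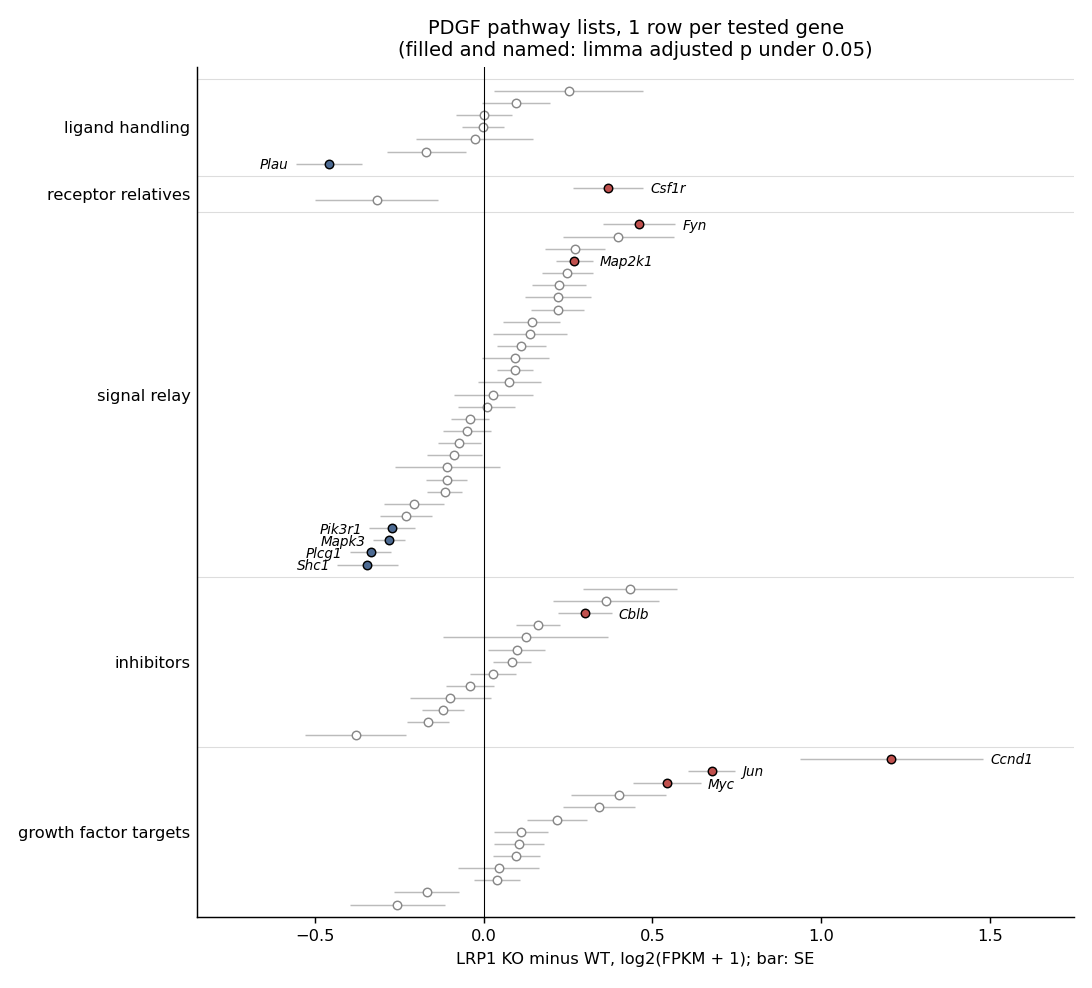
Estimated difference between LRP1 KO and WT in log2(FPKM + 1) for the tested genes of the 5 pathway lists other than 3 relay genes not reported here, 1 row per gene, with SE as a bar and filled, named points for genes with a limma adjusted p under 0.05 (red higher, blue lower in LRP1 KO). Ccnd1 stood farthest from 0 at 1.21, and the relay genes named as lower were between -0.34 and -0.27.

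Last, the genes whose profile over the 8 libraries was nearest to each member were found, by the root mean square difference between z-scored log2(FPKM + 1) values, which is 0 for the same profile and 1.87 for a mirror image. The profiles hold the difference between the groups, so nearness follows it to a large part and is given as a description. Nearest to Pdgfd were Lrrc32, Ereg and Ghitm (0.0870 to 0.106), with Ereg encoding epiregulin, another growth factor. Nearest to Pdgfa were Jag1, Mtap4 and Gnai2 (0.112 to 0.128), with Jag1 encoding a Notch ligand. Nearest to Pdgfb were Adcy4, Il2rg and Sh2d3c (0.0904 to 0.145). Nearest to Pdgfc were Maf, Cnksr3 and Zfp36l2 (0.119 to 0.123), nearest to Pdgfra were Mt2, Pdp1 and Clec11a (0.109 to 0.124), and nearest to Pdgfrb were Ssc5d, Fmo2 and Pcolce (0.164 to 0.172), the last a gene of collagen processing. Within the family, Pdgfa and Pdgfd were 0.240 apart and Pdgfc and Pdgfra 0.317 apart, whereas Pdgfa and Pdgfc were 1.86 apart, close to mirror images.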

How the data were processed

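RNA was sequenced from 4 WT and 4 LRP1 KO libraries, grouped and numbered by their titles. The deposited FPKM values were quantile normalized by the authors across the 8 libraries, which have sums of 503571 to 504112 and 1 shared highest value of 7793. The unit was inferred from the values and from the submitters' processing notes, which name TopHat2, Cufflinks and mm10. The paper's methods name STAR, featureCounts and edgeR, whose counts this table does not hold, so the count test was replaced by limma 3.58.1 (R 4.3.3) with mean-dependent prior variances on log2(FPKM + 1). Depth is unknown, and each value is set by the gene's rank in its library. Genes with at least 1 FPKM in at least 4 libraries were tested with group as the only term and Benjamini-Hochberg adjustment. Fold changes on this scale understate those of low genes. Single derived values were compared with exact two-sided permutation tests (scipy 1.17.1). Scripts were tested on simulated data. Positions came from GENCODE M21 (GRCm38, which mm10 denotes) and promoters from RefSeq. Hras and Adgre1 were matched by Ensembl identifier.

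The members and gene lists were chosen with earlier results of these data known. Named were all members, every called gene of the pathway lists with the 2 uncalled genes of highest mean level, and the 3 nearest profiles. Of the relay genes, 3 that this rule names are not reported here. Plat, St14, Kit, Flt3, Fos, Egr1, Pecam1, Cdh5, Eng, Col1a1, Tnnt2, Ryr2, Myh6, Nppa, Itga2b, Pf4, Flt1, Vwf, Kdr, Tek, Ttr, Ahsg, Scgb1a1, Ager, Ndufa4l2, Notch3, Cox4i2 and the called mural and fibroblast markers were named after their values were seen. Alternatives were a pseudocount of 0.1, no filter, rescaled libraries, 3 marker covariates, a replicate block, no variance trend and each library left out.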

Additional observations from a re-analysis of the deposited data

Results flagged for a closer look

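In 22 groups of 4 values (6 members and 5 derived values, each in WT and LRP1 KO), the highest or lowest library was compared with the rest by Dixon's criterion, and 3 stood apart beyond the 95% limit, which chance alone passes in about 1 of 20 groups. Pdgfc in LRP1 KO library 4 was 49.8 FPKM, where the other 3 were at 29.0 to 30.5 FPKM. The difference between Pdgfra and the fibroblast list in the same library was -0.97, where the other 3 were at -1.54 to -1.44. The difference between Pdgfb and the endothelial list in WT library 3 was -1.89, where the other 3 WT libraries were at -1.62 to -1.58.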

How the results depend on the processing

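Pdgfd kept its call in every fit without 1 library and lost it only with a marker covariate. Leaving out 1 library gave estimates of 0.35 to 0.52 for Pdgfa, 0.57 to 1.15 for Pdgfb, -0.90 to -0.65 for Pdgfc and -1.22 to -0.77 for Pdgfra. It gave 512 to 3021 called genes, or 133 to 339 with an absolute log2 change of at least 1, with each highest value without LRP1 KO library 4. Called list genes ran from 0 to 1 (ligand handling, receptor relatives and inhibitors), 3 to 16 (relay) and 2 to 5 (growth factor targets). Pdgfra minus the fibroblast list ran from -0.74 to -0.55, in a design of 3 against 4 whose exact test cannot go under 0.0571.

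With the endothelial, mural and macrophage covariates in turn, the estimates that lost their call were 0.15, 0.34 and 0.82 for Pdgfa, -0.35, -0.34 and -1.29 for Pdgfc, 0.70, 0.94 and 1.96 for Pdgfd, and -0.29, -1.18 and -2.34 for Pdgfra. With the endothelial covariate Pdgfb turned to -0.05002 and Pdgfrb to 0.0296. Called genes were 172, 0 and 6 with these covariates (95, 0 and 6 with the limit on size), against 1547 and 184. Called list genes fell from 1 to 0 for ligand handling, receptor relatives and inhibitors and from 8 to 0 for relay with all 3, and from 3 to 1, 0 and 0 for growth factor targets. At an unadjusted p under 0.05 these limma fits held 1, 0 and 2 ligand handling genes, 1, 0 and 1 receptor relatives, 2, 0 and 0 inhibitors, 5, 0 and 11 relay genes and 3, 2 and 4 targets. With no filter, Pdgfa (0.41) and Pdgfra (-0.96) lost their calls, and 2 ligand handling genes, 0 receptor relatives and 0 inhibitors were called (1 and 5 at an unadjusted p under 0.05). Pdgfrb minus the mural list was -0.68 with a pseudocount of 0.1 and then passed (exact permutation p 0.0286). The cause of these moves was not tested.

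The deviations of same-numbered libraries from their group means had correlations of 0.158, 0.141, 0.340 and -0.312, so a pairing was neither given by the labels nor seen in every pair, and the numbers were not used as one. With the replicate block 1013 genes and 0 receptor relatives (2 at an unadjusted p under 0.05) were called, Pdgfa (0.41, limma adjusted p 0.0647) and Pdgfra (-0.96, limma adjusted p 0.0518) were not, Pdgfrb was at -0.31 with a smaller SE (0.0861, limma adjusted p 0.0707), and Pdgfra minus the fibroblast list (-0.61) could not go under an exact p of 0.125. Not every library correlated best with its own number. Unknown depth and quantile normalization limit what can be said of low members such as Pdgfb.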
